A study of Caenorhabditis elegans with 6 samples.

Results

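The pharyngeal muscle genes described here are 3 myosin heavy chain genes, myo-1, myo-2 and myo-5, and 3 troponin genes, tnc-2, tni-4 and tnt-4. They were taken by name from the gene column of the deposited table, where all 6 were found among 45292 listed genes. All 6 had enough reads to be tested, as did 14417 genes in all. RNA was sequenced from whole young adult Caenorhabditis elegans hermaphrodites, synchronized by age and taken 24 h after the last larval stage (L4), irradiated with X-ray doses of 0, 200 or 400 gray (Gy). Each dose has 2 libraries, and the 0 Gy libraries serve as the reference for both irradiated doses. The worms, about 1000 per the labels' protocols, were irradiated with a linear accelerator; the labels do not say whether that number holds per dose. Not given in the sources used here are the strain and the time from irradiation to harvest. Separate cultures are not stated for the libraries of a dose, and the p-values then reflect only library-to-library spread, possibly technical.

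The pharynx is the muscular feeding pump of the worm, and its contractile proteins are partly encoded by genes of their own rather than by those used in body wall muscle. Myosin heavy chains form the thick filaments and the force-producing heads, and troponin sits on the thin filament, where it lets calcium switch contraction on. Troponin has a calcium-binding subunit (troponin C), an inhibitory subunit (troponin I) and a subunit that binds tropomyosin (troponin T). In the pharynx these are encoded by tnc-2, tni-4 and tnt-4.

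The heavy chain genes are long and the troponin genes are short. In the table's gene models, which for 5 of the 6 genes equal the annotated coding sequence plus its stop codon, myo-1 has 5817 bases, myo-2 has 5844 and myo-5 has 5925. The model of tnc-2 has 483 bases, that of tni-4 has 585 and that of tnt-4 has 1137. For tnt-4 the annotation gives 1041 and 1125 coding bases in its 2 transcripts. On the WBcel235 build the coding spans lie on chromosome I from 7259464 to 7266935 for myo-1, on chromosome X from 12468149 to 12474946 for myo-2, and on chromosome V from 8109051 to 8117841 for myo-5. Those of the troponin genes lie on chromosome II from 10466937 to 10468107 for tnc-2, on chromosome IV from 5204607 to 5206904 for tni-4, and on chromosome V from 1989677 to 1992886 for tnt-4. The annotated genes have 9 exons in myo-1, 12 in myo-2, 14 in myo-5, 5 in tnc-2, 4 in tni-4 and 6 in tnt-4. The library kit does not mark strand. Exons of tnc-2 share 157 bases with clec-143 on the opposite strand and those of tni-4 share 16 bases with Y59E9AL.36, in both cases outside the troponin coding sequence.

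Length matters here because the libraries differed in how reads were spread over short and long genes. Regressed on log2 coding length, the log2 deviation of the 0 Gy libraries had slopes of 0.069 and 0.052, that of the 200 Gy libraries -0.284 and -0.534, and that of the 400 Gy libraries 0.418 and 0.278. Tested genes were put in 10 length classes of equal number. In the class with the longest coding sequences (2634 bases and more), which holds all 3 myosins, the median log2 fold change was -1.32 for 200 Gy against 0 Gy and 0.95 for 400 Gy against 0 Gy. The class that holds tnc-2 (375 to 558 bases) had medians of 0.96 and -0.43, and that of tni-4 (558 to 735 bases) had medians of 0.64 and -0.40. The class of tnt-4 (1087 to 1275 bases) had medians of 0.13 and -0.10. At the length of myo-1 the fitted trend of log2 deviations was 0.002 and 0.115 in the 0 Gy libraries, -1.221 and -1.931 in the 200 Gy libraries, and 1.628 and 1.407 in the 400 Gy libraries. The cause of this trend was not tested, and trend and dose cannot be told apart in the deposited counts. Each result is therefore given on counts as deposited and after removing each library's trend on coding length, called length-corrected. Levels are CPM, counts relative to library size as scaled with edgeR's TMM factors.

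Per length, the troponin transcripts were on average the more abundant class in every library. In RPKM (CPM divided by coding length in kilobases, mean ± SD, n = 2), the level at 0 Gy was 20.9 ± 7.2 for tni-4, 4.64 ± 0.573 for tnc-2 and 2.15 ± 0.8 for tnt-4. The myosins followed at 1.49 ± 0.407 for myo-2, 0.784 ± 0.0934 for myo-5 and 0.714 ± 0.115 for myo-1. The ranges of tnt-4 and myo-2 overlapped at this dose, as did those of myo-5 and myo-1, although within each 0 Gy library tnt-4 stood above myo-2 and myo-5 above myo-1. At 200 Gy tni-4 (74.0 ± 37.6 RPKM) and tnc-2 (36.2 ± 34.9 RPKM) led with overlapping ranges, tni-4 the higher in each library. They were followed by tnt-4 (3.58 ± 2.12 RPKM) and myo-2 (2.79 ± 0.171 RPKM), which also overlapped and whose order differed between the libraries, then by myo-1 (0.85 ± 0.22 RPKM) and myo-5 (0.348 ± 0.127 RPKM). At 400 Gy the order was tni-4 (39.6 ± 4.98 RPKM), tnc-2 (18.4 ± 3.2 RPKM), myo-2 (14.3 ± 1.28 RPKM), myo-1 (10.9 ± 0.0599 RPKM), tnt-4 (9.95 ± 0.473 RPKM) and myo-5 (6.71 ± 0.775 RPKM), and no neighbours in it overlapped. On this scale, which is not length-corrected, myo-1 and myo-2 stood above tnt-4 at 400 Gy.

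The myosin heavy chains were measured at few reads in unirradiated worms and at many more after 400 Gy. For myo-1, a pharyngeal heavy chain, the libraries held 3.68 and 4.63 CPM at 0 Gy (45 and 57 reads), 5.85 and 4.04 CPM at 200 Gy (42 and 42 reads), and 63.5 and 63.0 CPM at 400 Gy (726 and 695 reads). The 400 Gy libraries lay far above the others, while those of 200 and 0 Gy overlapped. For myo-2, the other classical pharyngeal heavy chain and the source of a much-used pharyngeal promoter, they held 7.03 and 10.4 CPM at 0 Gy, 17 and 15.6 CPM at 200 Gy, and 89.1 and 78.5 CPM at 400 Gy. Here both irradiated doses lay above 0 Gy in every library. For myo-5, a further muscle-type heavy chain, they held 4.25 and 5.03 CPM at 0 Gy, 1.53 and 2.6 CPM at 200 Gy, and 43.0 and 36.5 CPM at 400 Gy. The values of myo-5 at 200 Gy rest on 11 and 27 reads and lay below both unirradiated libraries. The share of all genes that lay apart from 0 Gy at 200 Gy was not taken, so such positions at 200 Gy have no reference. The sources used here do not give how reads matching several myosin genes were counted.

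Of the heavy chains, myo-1 and myo-2 rose at 400 Gy, by less once the trend on length was removed. The log2 fold change for 400 Gy against 0 Gy (± standard error, SE) was 3.92 ± 0.37 for myo-1, 3.26 ± 0.34 for myo-2 and 3.1 ± 0.39 for myo-5. By the quasi-likelihood test of edgeR, Benjamini-Hochberg adjusted over all tested genes, myo-1 (adjusted p = 0.0324) and myo-2 (adjusted p = 0.0344) rose and myo-5 missed the threshold of 0.05 (adjusted p = 0.0504). Of the 6 pharyngeal genes these 2 were called, against 0.0486% of all tested genes in either direction and 0.0416% called higher. In the class of longest genes, which holds the myosins, 0.347% were called higher. In the whole table myo-1 and myo-2 were 2 of the 6 genes called higher. With DESeq2's size factors, or with no filter on low counts, edgeR called myo-5 too (adjusted p = 0.0214 and 0.0161), among 273 and 230 genes in all. DESeq2 called 5 of the 6 pharyngeal genes, all but tni-4, against 9.38% of genes. A fit to only the 4 libraries compared called the same 5 against 15.2%, and all 6 against 14.2% length-corrected. Length-corrected, the values were 2.48 ± 0.36 for myo-1 (adjusted p = 0.0331), 1.81 ± 0.37 for myo-2 (adjusted p = 0.0416) and 1.62 ± 0.44 for myo-5 (adjusted p = 0.0749), so the same 2 members were called, against 1.84% of genes. With the replicate number as a block in edgeR, myo-5 passed as well (adjusted p = 0.00197, and 0.0129 length-corrected); the block called 5 pharyngeal genes against 24.9% of all genes, and 6 against 17.4% length-corrected. Without the first or the second 0 Gy library, edgeR called neither gene (adjusted p = 0.406 for both without the first, 0.37 for both without the second). Without the first or the second 400 Gy library it again called neither (adjusted p = 0.0745 and 0.0882 for myo-1, 0.0811 and 0.0882 for myo-2). In each of these 4 fits 0 genes of the whole table were called, and the log2 fold changes stayed between 3.01 and 4.1. The length-corrected calls were lost without any of these 4 libraries too, with values of 2.37 to 2.59 for myo-1 and 1.6 to 2.05 for myo-2. Without the first or the second 200 Gy library, 5 pharyngeal genes were called, all but tni-4, among 2273 and 2295 genes in all. Length-corrected, all 6 were called in both fits, among 2021 and 2025 genes.

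At 200 Gy the myosins had unlike values on the deposited counts, all above the median of the longest genes. The log2 fold change for 200 Gy against 0 Gy was 0.24 ± 0.35 for myo-1 (adjusted p = 0.649), 0.9 ± 0.33 for myo-2 (adjusted p = 0.0872) and -1.14 ± 0.40 for myo-5 (adjusted p = 0.0826). In edgeR 0 of the 3 were called, 2 had an unadjusted p under 0.05, and DESeq2 called 0. With the block myo-2 was called higher (adjusted p = 0.0259) and myo-5 lower (adjusted p = 0.0293), in a fit that called 44.7% of all genes. The share of all genes at an unadjusted p under 0.05 was not taken, so counts at that cut have no reference in this report. The median of their length class was -1.32, and 36.2% of its genes were called lower. Length-corrected, myo-1 rose by 1.86 ± 0.37 (adjusted p = 0.0342) and myo-2 by 2.57 ± 0.38 (adjusted p = 0.0316), against 2.19% of all genes called higher. In length-corrected CPM, myo-1 held 14.1 and 16.1 at 200 Gy against 3.86 and 4.45 at 0 Gy, and myo-2 held 40.1 and 60.2 against 7.22 and 9.77. The length-corrected value of myo-5 was 0.59 ± 0.48 (adjusted p = 0.453), with the sign opposite to that on deposited counts. These corrected calls were lost without either 0 Gy library, where the values were 1.76 to 1.98 for myo-1 and 2.37 to 2.81 for myo-2 on the log2 scale. That of myo-1 was lost also without either 400 Gy library (adjusted p = 0.0542 without the first, 0.0502 without the second).

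**Figure D1:**
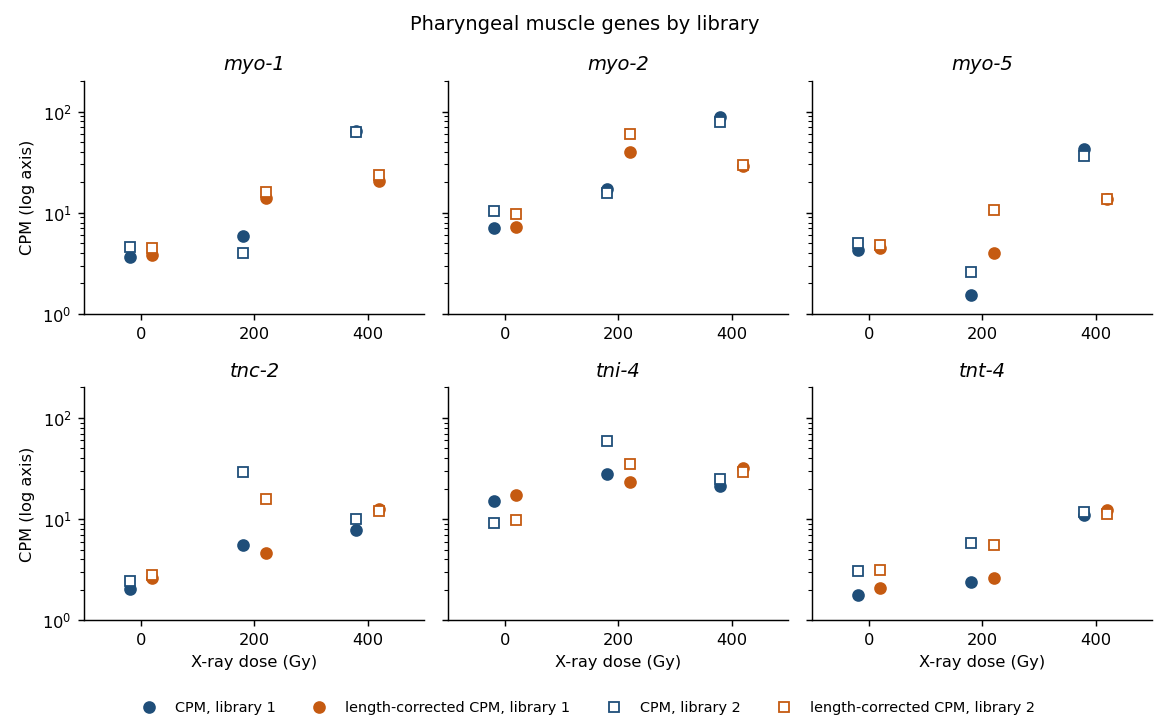
CPM (log axis) of each pharyngeal muscle gene in every library by X-ray dose in Gy; blue points are TMM-scaled CPM, orange points length-corrected CPM, filled for library 1 and open for library 2. The 400 Gy libraries lie above the 0 Gy libraries for all 6 genes on both scales, and the second 200 Gy library stands high for tnc-2, tni-4 and tnt-4.

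Of the troponins, tnc-2 and tni-4 rose at 200 Gy on the deposited counts, and the second library of that dose stood highest for both. For tnc-2, the calcium-binding subunit, the libraries held 2.04 and 2.44 CPM at 0 Gy (25 and 30 reads), 5.57 and 29.4 CPM at 200 Gy (40 and 306 reads), and 7.78 and 9.97 CPM at 400 Gy (89 and 110 reads). All irradiated libraries lay above the unirradiated ones, and the 200 Gy libraries differed 5.28-fold from each other. For tni-4, the inhibitory subunit, they held 15.2 and 9.26 CPM at 0 Gy, 27.7 and 58.9 CPM at 200 Gy, and 21.1 and 25.2 CPM at 400 Gy. Again no irradiated library overlapped 0 Gy, though for 200 Gy the share of all genes lying so was not taken. The second 200 Gy library was 2.12 times the first. For tnt-4, the tropomyosin-binding subunit, they held 1.8 and 3.09 CPM at 0 Gy, 2.37 and 5.77 CPM at 200 Gy, and 10.9 and 11.7 CPM at 400 Gy. The 200 Gy libraries of tnt-4, with 17 and 60 reads, overlapped those of 0 Gy, and both 400 Gy libraries stood above all others.

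For 200 Gy against 0 Gy, tnc-2 rose by 2.97 ± 0.74 on the log2 scale (adjusted p = 0.0364) and tni-4 by 1.82 ± 0.45 (adjusted p = 0.0357), while tnt-4 had 0.75 ± 0.55 (adjusted p = 0.346). These 2 calls among the 6 pharyngeal genes stand against 15.7% of all genes called in either direction and 7.03% called higher. In their length classes, 19.4% of genes were called higher for tnc-2 and 12% for tni-4. DESeq2 called the same 2 pharyngeal genes, against 23.1% of genes, and a fit to only the 4 libraries compared called 1 of the 6 (tnc-2), against 11.5%, and 1 (myo-2) length-corrected, against 2.05%. Length-corrected, neither was called: tnc-2 had 2.04 ± 0.57 (adjusted p = 0.0639), tni-4 had 1.14 ± 0.40 (adjusted p = 0.107) and tnt-4 had 0.70 ± 0.50 (adjusted p = 0.391). The length-corrected calls at this dose were thus the 2 myosins named above, against 4.61% of genes in either direction. With the block, 4 pharyngeal genes were called on deposited counts against 44.7% of genes, and 4 length-corrected (myo-1, myo-2, tnc-2 and tni-4) against 32% of genes. Without the first 200 Gy library, tnc-2 (2.65, adjusted p = 6.45e-05) and tni-4 (1.4, adjusted p = 0.0251) were called length-corrected as well. Without the second 200 Gy library, the value of tnc-2 was 1.20 (adjusted p = 0.189), that of tni-4 1.07 (adjusted p = 0.131) and that of tnt-4 -0.15 (adjusted p = 0.892). The edgeR calls of tnc-2 and tni-4 were also lost without the first 0 Gy library (adjusted p = 0.2 and 0.146), the second (0.203 and 0.222), the first 400 Gy library (0.0532 and 0.0565) or the second (0.0513 and 0.0597), with values of 2.82 to 3.1 for tnc-2 and 1.51 to 2.23 for tni-4.

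At 400 Gy the troponins lay above 0 Gy in every library, where the medians of their length classes were below 0. The log2 fold change for 400 Gy against 0 Gy was 1.98 ± 0.72 for tnc-2 (adjusted p = 0.167), 0.92 ± 0.44 for tni-4 (adjusted p = 0.255) and 2.21 ± 0.55 for tnt-4 (adjusted p = 0.0988). In edgeR 0 of the 3 were called, 2 had an unadjusted p under 0.05, and DESeq2 called 2 (tnc-2 and tnt-4), against 9.38% of all genes. Length-corrected, the values were 2.27 ± 0.57 for tnc-2 (adjusted p = 0.0629), 1.19 ± 0.40 for tni-4 (adjusted p = 0.131) and 2.24 ± 0.50 for tnt-4 (adjusted p = 0.0515), again with 0 called in edgeR and 3 at an unadjusted p under 0.05. With the length correction and the block all 3 were called (adjusted p = 0.0129, 0.0343 and 0.00738), in a fit that called 17.4% of all genes. For all 6 pharyngeal genes both 400 Gy libraries lay above both 0 Gy libraries, in CPM and in length-corrected CPM; 28.1% and 21.9% of all tested genes did so on these scales. The median log2 fold change over the 6 was 2.65, and 2.02 length-corrected, where that of all tested genes was -0.03 and -0.08. In whole-worm RNA a larger share of pharyngeal muscle and more of these transcripts per cell cannot be told apart.

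**Figure D2:**
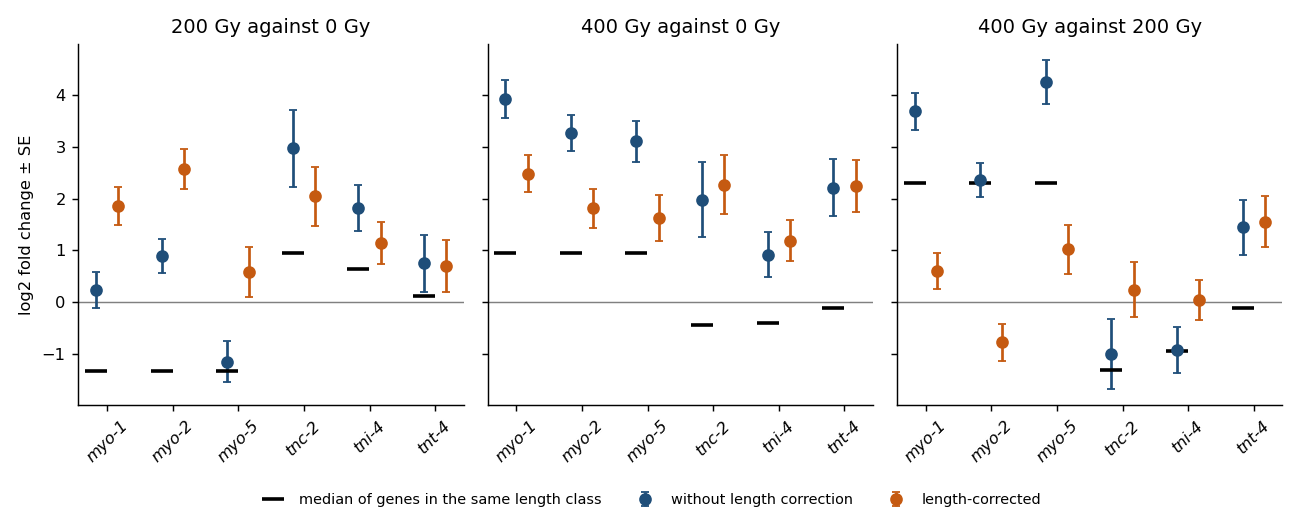
Log2 fold change ± SE of each pharyngeal muscle gene in the 3 dose comparisons, on deposited counts (blue) and length-corrected (orange), with a black bar at the median of the genes in the same length class. Against 0 Gy, all 6 genes lie above the bar of their class at 400 Gy and at 200 Gy.

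The doses were then set against each other directly. For 400 Gy against 200 Gy, the 3 myosins rose on deposited counts, myo-1 by 3.68 ± 0.36 (adjusted p = 0.00265), myo-2 by 2.36 ± 0.33 (adjusted p = 0.00375) and myo-5 by 4.24 ± 0.42 (adjusted p = 0.00265). These 3 calls stand against 31.2% of all genes in either direction and 15% called higher, but against 73.0% called higher in the class of longest genes. The median of that class was 2.3, and most of its genes are shorter than the myosins. DESeq2 called the myosins and tnt-4, against 34.8% of genes, and a fit to only the 4 libraries compared called the 3 myosins, against 21.9%, and 0 length-corrected, against 2.21%. The troponins tnc-2 (-0.99 ± 0.67, adjusted p = 0.292), tni-4 (-0.91 ± 0.44, adjusted p = 0.147) and tnt-4 (1.45 ± 0.53, adjusted p = 0.0705) did not pass. The block called tnt-4 as well (adjusted p = 0.00744), which made 4 pharyngeal genes against 53% of genes. Length-corrected, edgeR called 0 of the 6 against 4.97% of genes, with 1 at an unadjusted p under 0.05. The corrected values were 0.61 ± 0.35 for myo-1, -0.77 ± 0.36 for myo-2, 1.02 ± 0.47 for myo-5, 0.24 ± 0.53 for tnc-2, 0.05 ± 0.39 for tni-4 and 1.55 ± 0.49 for tnt-4. With the block and the length correction, myo-2 was lower at 400 Gy (adjusted p = 0.0358) and tnt-4 higher (adjusted p = 0.0121), against 32.3% of genes called. Without the first 200 Gy library, tnc-2 (-1.55, adjusted p = 0.0193) and tni-4 (-1.17, adjusted p = 0.0387) passed as lower at 400 Gy on deposited counts, and without the second, tnc-2 had 0.81 (adjusted p = 0.337) and tnt-4 2.39 (adjusted p = 0.0144). Without that second library, length-corrected, myo-5 (1.93, adjusted p = 0.0397) and tnt-4 (2.27, adjusted p = 0.0145) passed.

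**Figure D3:**
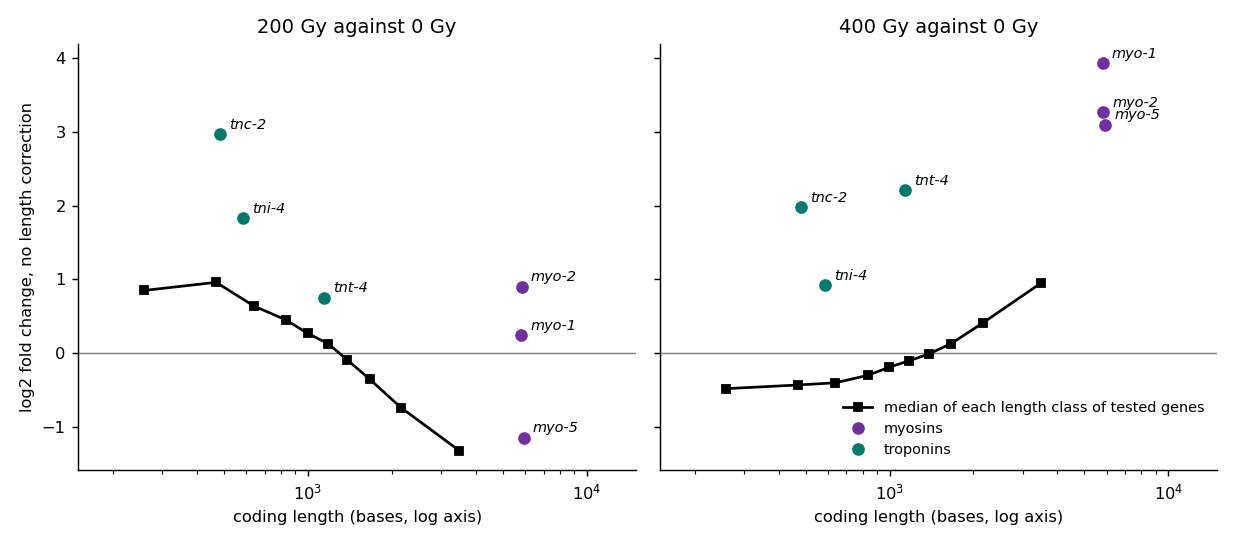
Log2 fold change on deposited counts (no error bars; their SE is given in the text) against coding length in bases on a log axis, for 200 Gy against 0 Gy and 400 Gy against 0 Gy. Black squares are the medians of the 10 length classes of tested genes; all 3 myosins (purple) and all 3 troponins (green) lie above the square of their own class in both panels, and the myosins are longer than most genes of theirs.

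The balance of troponin to myosin moved with dose on the deposited counts and hardly moved length-corrected. The mean log2 RPKM of the 3 troponins minus that of the 3 myosins was 2.77 and 2.5 in the 0 Gy libraries, 3.52 and 5.08 in the 200 Gy libraries, and 0.74 and 1.12 in the 400 Gy libraries. No dose overlapped another, but the difference sets short genes against long ones, so each library's length trend enters it directly. The length correction takes off that same trend, so neither scale tells trend and dose apart. No p is given for this score. Length-corrected, the difference was 2.96 and 2.67 in the 0 Gy libraries, 2.09 and 2.52 in the 200 Gy libraries, and 2.85 and 2.67 in the 400 Gy libraries. The 400 Gy and 0 Gy libraries then met at 2.67, and both 200 Gy libraries lay somewhat below. In fold changes, the troponin mean minus the myosin mean was 1.85 for 200 Gy against 0 Gy, -1.73 for 400 Gy against 0 Gy and -3.57 for 400 Gy against 200 Gy, and -0.39, -0.06 and 0.32 length-corrected.

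**Figure D4:**
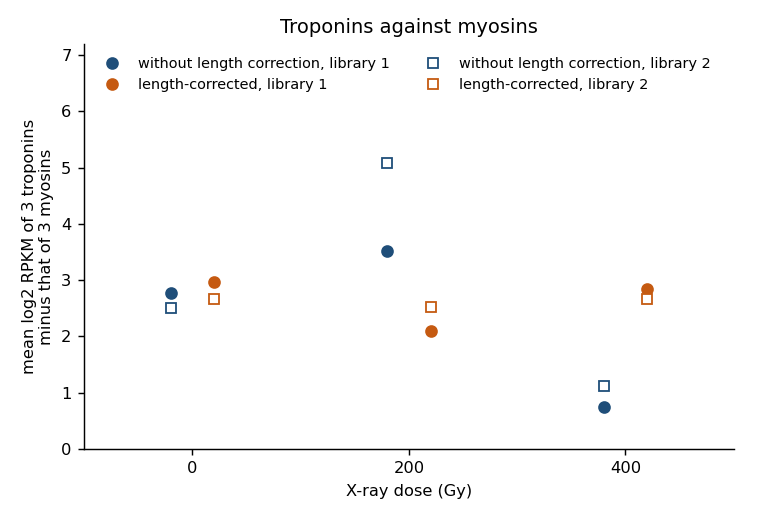
Mean log2 RPKM of the 3 troponins minus that of the 3 myosins in each library by dose in Gy, on deposited counts (blue) and length-corrected (orange), filled for library 1 and open for library 2. The blue points run from 0.74 to 5.08 with the doses apart, and the orange points from 2.09 to 2.96.

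Ratios between genes of like coding length lessen the trend without fitting it, more so the closer the lengths. The pairs were chosen after the values had been seen, by taking the heavy chains of body wall muscle and of non-muscle cells and the body wall troponin of the same kind closest in length. Reads of the 3 pharyngeal myosins came to 2.85% and 2.3% of those of the body wall heavy chains unc-54 and myo-3 in the 0 Gy libraries, 1.8% and 3.57% in the 200 Gy libraries, and 4.83% and 4.7% in the 400 Gy libraries. The 400 Gy libraries were higher than all others, by 0.90 on the log2 scale over 0 Gy (exact two-sided permutation p = 0.333, the smallest possible), and the 200 Gy libraries overlapped those of 0 Gy. Singly, the 400 Gy libraries exceeded the 0 Gy libraries by 1.40 for myo-1, 0.76 for myo-2 and 0.57 for myo-5 on that scale, without overlap. At 200 Gy the ratios of myo-1 and myo-2 overlapped those of 0 Gy, with differences of -0.20 and 0.49. That of myo-5 was lower without overlap, at 0.113% and 0.417% in the 200 Gy libraries against 0.809% and 0.578% in the 0 Gy libraries (-1.65), a sign opposite to its length-corrected fold change. Between 400 Gy and 200 Gy the ratio of myo-2 overlapped. Against the non-muscle heavy chains nmy-1 and nmy-2, which work in cell division and cell shape, the pharyngeal myosins came to 2.74% and 4.69% in the 0 Gy libraries, 17.7% and 24.7% in the 200 Gy libraries, and 11.3% and 14.2% in the 400 Gy libraries. Both irradiated doses lay above 0 Gy here, with 200 Gy the higher. The body wall heavy chains, set against the non-muscle ones in the same way, stood higher by 2.56 at 200 Gy and by 0.93 at 400 Gy on the log2 scale than at 0 Gy, without overlap of libraries.

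Among the troponins, 2 of 3 stood higher at 400 Gy against their body wall counterparts. Reads of tnc-2 came to 0.26% and 0.246% of those of pat-10, the body wall troponin C, in the 0 Gy libraries, 0.17% and 0.673% in the 200 Gy libraries, and 0.97% and 1.21% in the 400 Gy libraries. Reads of tnt-4 came to 0.547% and 0.721% of those of mup-2, a body wall troponin T, in the 0 Gy libraries, 0.219% and 0.716% in the 200 Gy libraries, and 1.81% and 1.72% in the 400 Gy libraries. In both pairs the 400 Gy libraries lay above all others, by 2.1 and 1.49 on the log2 scale over 0 Gy, and the 200 Gy libraries overlapped 0 Gy. Reads of tni-4 came to 4.0% and 2.25% of those of unc-27, a body wall troponin I, in the 0 Gy libraries, 1.92% and 3.22% in the 200 Gy libraries, and 2.63% and 2.85% in the 400 Gy libraries, with all doses overlapping. With coding lengths of 585 bases (tni-4) and 729 bases (unc-27), this pair is less alike and keeps part of the trend. At 200 Gy against 0 Gy the length correction moved tni-4 from 1.82 to 1.14 and unc-27 from 2.04 to 1.59. With 2 libraries against 2, an exact permutation test of the troponin pairs allows no p under 0.333.

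**Figure D5:**
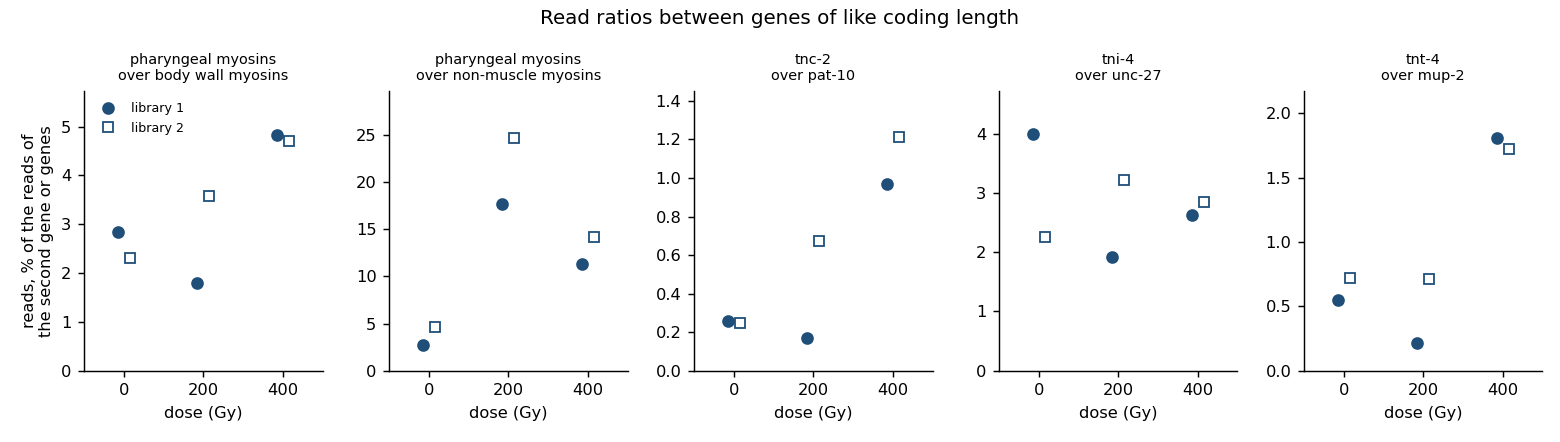
Reads of pharyngeal muscle genes as a percentage of reads of genes of like coding length, per library by dose in Gy, filled for library 1 and open for library 2. At 400 Gy the ratio to body wall genes stands above 0 Gy for the myosins, tnc-2 and tnt-4 and overlaps it for tni-4.

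The rest of the contractile machinery gives the setting for these values. The shares of all genes called in either direction against 0 Gy are the reference for the counts here and in the lists below. In edgeR without the block they were 15.7% at 200 Gy and 0.0486% at 400 Gy, and 4.61% and 1.84% length-corrected. By DESeq2 they were 23.1% and 9.38%. With the block they were 44.7% and 24.9%, and 32% and 17.4% length-corrected. Of 7 other troponin genes, 3 rose at 200 Gy against 0 Gy, namely pat-10 (2.11 ± 0.39), unc-27 (2.04 ± 0.37) and mup-2 (1.32 ± 0.37); length-corrected 0 rose and tni-1, another troponin I gene, fell (-1.66, adjusted p = 0.0432). The median of the 7 log2 fold changes was 1.33 for 200 Gy and 0.76 for 400 Gy against 0 Gy, and for 400 Gy edgeR called 0, 4 had an unadjusted p under 0.05 and DESeq2 called 3. At 400 Gy the median of the pharyngeal troponins was 1.98 on the same scale. Of 7 other thick filament genes, the light chain genes mlc-2 (1.76 ± 0.36) and mlc-3 (1.72 ± 0.36) rose at 200 Gy, and length-corrected only unc-54 was called (2.15, adjusted p = 0.0407). At 400 Gy edgeR called 0 of these 7 (3 at an unadjusted p under 0.05, 3 by DESeq2), with unc-54 at 2.5 ± 0.51 and myo-3 at 2.41 ± 0.44 on deposited counts and 1.04 and 0.96 length-corrected. The pharyngeal myosins, of the same length, had 3.1 to 3.92, and 1.62 to 2.48 length-corrected. Of 6 tested thin filament genes, only lev-11, tropomyosin, was called at 200 Gy (1.67 ± 0.38, and 2.08 length-corrected), and at 400 Gy edgeR and DESeq2 called 0 with 0 at an unadjusted p under 0.05. Of the genes of giant muscle proteins, the longest of the contractile genes, unc-22 and ttn-1 fell at 200 Gy (-2.54 ± 0.59 and -2.35 ± 0.53) and unc-89 had -1.28 ± 0.53. At 400 Gy edgeR called 0 of these 3 (3 at an unadjusted p under 0.05, 3 by DESeq2), with a median of 4.09 that became 0.87 length-corrected, where unc-22 was called (1.96, adjusted p = 0.0495). Of 13 tested genes of non-muscle and unconventional myosins, 6 fell at 200 Gy, among them nmy-1 (-1.82 ± 0.43) and nmy-2 (-2.22 ± 0.57), and length-corrected edgeR called 0, with 2 at an unadjusted p under 0.05. Of all genes in the longest class, which holds most of these, 36.2% were called lower at 200 Gy. With the replicate block, 400 Gy against 0 Gy gave 3 higher and 1 lower of the other troponins, 3 higher of the thick filament genes, 0 of the thin filament genes, 3 higher of the giant protein genes and 9 higher of the 13 myosin genes. In the block with the length correction these were 3 and 1, 2 and 1, 0, 1 higher, and 1 higher and 2 lower. For 200 Gy against 0 Gy the block gave 5 higher and 2 lower, 3 and 1, 2 and 0, 0 and 2, and 1 and 8 in the same order of lists.

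Other genes listed for the pharynx did not move as one group. In whole-worm RNA their reads may come from other tissues too, so these values do not describe the pharynx alone. Of 11 tested genes of pharyngeal excitability, 4 fell at 200 Gy, all with long coding sequences: the calcium channel genes egl-19 (-2.57 ± 0.45), cca-1 (-2.99 ± 0.61) and unc-36 (-1.88 ± 0.51) and the ryanodine receptor gene unc-68 (-2.94 ± 0.45). Length-corrected edgeR called 0 of the 11, with 2 of the 11 at an unadjusted p under 0.05. At 400 Gy edgeR called 0 of the 11 (4 at an unadjusted p under 0.05, 2 by DESeq2), and their median of 0.56 became -0.35 length-corrected. From the same list, eat-2 and eat-18 held at most 10 reads in a library and were not tested. Of 5 tested pharyngeal transcription factors, edgeR called 0 in either comparison with 0 Gy (2 at 200 Gy and 1 at 400 Gy at an unadjusted p under 0.05, 2 and 0 by DESeq2); pha-4, the organ identity factor, had -0.43 ± 0.47 at 200 Gy and 1.07 ± 0.45 at 400 Gy. Of 4 tested genes of pharyngeal glands and cuticle, phat-6 rose at 200 Gy (2.71 ± 0.71, adjusted p = 0.0421), a call lost length-corrected (2.02, adjusted p = 0.0686). It had 23 and 29 reads in the 0 Gy libraries, 33 and 239 in the 200 Gy libraries, and 106 and 121 in the 400 Gy libraries, which like tnc-2 puts the second 200 Gy library far above the first. Length-corrected, phat-3 (2.97, adjusted p = 0.0456) and phat-4 (4.61, adjusted p = 0.0331) rose at 400 Gy. Both fold changes rest on few reads at 0 Gy, 20 and 6 for phat-3 and 3 and 5 for phat-4. The reads of phat-4 lay mostly in the 400 Gy libraries (70 and 90, against 1 and 13 at 200 Gy). Of this list 13 genes were found, and those not tested had too few reads. The fourth, abu-13, had -2.37 ± 0.76 at 200 Gy (adjusted p = 0.0649, and -2.45 length-corrected) and -0.92 ± 0.70 at 400 Gy (adjusted p = 0.458). DESeq2 and the block each called 1 gland or cuticle gene higher and 1 lower at 200 Gy, and 3 higher at 400 Gy. The block called 1 higher and 4 lower of the excitability genes at 200 Gy and 4 higher at 400 Gy, and 2 lower and 0 of the transcription factors.

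Markers of other tissues moved as well, and their part in these results was not tested. All 8 sperm markers were found and 7 tested. The 7 tested summed to 21.4 and 23.5 CPM at 0 Gy and 37.6 and 124 CPM at 200 Gy. At 400 Gy they summed to 66.8 and 164 CPM, and at each dose the second library was the higher. In CPM, only tni-4 at 0 Gy among the troponins stood lower in the second library than in the first; in length-corrected CPM so did all 3 troponins at 400 Gy and tni-4 at 0 Gy. Of the sperm markers, edgeR called 0 against 0 Gy on deposited counts (2 at 200 Gy and 7 at 400 Gy at an unadjusted p under 0.05, 2 and 6 by DESeq2) and 2 length-corrected at 400 Gy. Of all genes, DESeq2 called 23.1% at 200 Gy and 9.38% at 400 Gy, and the block called 44.7% and 24.9% (32% and 17.4% length-corrected). Of 10 early embryo markers 8 were tested. The 8 tested summed to 72.5 and 109 CPM at 0 Gy and 14.1 and 15.8 CPM at 200 Gy. At 400 Gy they summed to 37.1 and 37 CPM. At 200 Gy 5 were called lower (4 length-corrected), and the untested end-1 and med-1 stood at or near 0. Of 7 epidermal markers 3 fell and 1 rose at 200 Gy, and of 7 neuronal markers 3 fell and 1 rose. Length-corrected, 2 epidermal markers fell and 1 rose at 200 Gy and dpy-7 fell at 400 Gy (-2.75, adjusted p = 0.0331), and of the neuronal markers ric-4 alone was called, lower at 200 Gy (-2.15, adjusted p = 0.0374). Of the tested markers of germline (7), intestine (7) and coelomocytes (3), edgeR called 0 against 0 Gy at either dose. At an unadjusted p under 0.05 there was 1 of each kind at 200 Gy and 1 coelomocyte marker at 400 Gy; DESeq2 called 1 germline and 1 intestine marker at 200 Gy and 0 at 400 Gy. The block called 1 germline marker lower at 200 Gy (2 higher and 1 lower length-corrected) and 4 higher at 400 Gy (3 length-corrected). It called 1 intestine marker higher at 200 Gy and 0 at 400 Gy, and 1 coelomocyte marker higher at each dose. It called 3 sperm markers higher at 200 Gy and 6 at 400 Gy, and 6 embryo markers lower at 200 Gy and 5 at 400 Gy. Of the epidermal markers it called 1 higher and 5 lower at 200 Gy and 1 higher and 2 lower at 400 Gy, and of the neuronal ones 1 higher and 5 lower at 200 Gy and 1 lower at 400 Gy.

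By likeness over the 6 libraries, the genes nearest to the myosins and to the troponins were different ones. Likeness was the root mean square difference between a gene's log2 CPM, centred on its own mean, and the average of the class, over 9838 genes with a mean of at least 5 CPM. Nearest to the myosins were Y38E10A.17 (0.32), catp-4 (0.34), mth-1 (0.37), T19D12.1 (0.4) and Y69A2AR.19 (0.43), with coding lengths from 1761 to 5535 bases. Their levels were low at 0 and 200 Gy and high at 400 Gy, as for catp-4 with 2.62 and 2.52 CPM at 0 Gy, 2.09 and 2.31 CPM at 200 Gy, and 20.3 and 38 CPM at 400 Gy. Nearest to the troponins were R10E9.2 (0.19), ssq-3 (0.21), msp-76 (0.23), F35B12.3 (0.25) and ssq-4 (0.26), with coding lengths from 384 to 1122 bases; ssq and msp genes are known from sperm, and msp genes are near-identical copies that can share reads. The level of ssq-3 was 5.23 and 5.36 CPM at 0 Gy, 12.3 and 24.0 CPM at 200 Gy, and 13.9 and 21.5 CPM at 400 Gy. The members themselves lay at 0.26 to 0.55 from the myosin average and 0.44 to 0.67 from the troponin average, so all 5 genes lay nearer to the troponin average than any troponin did, and myo-1 alone of the myosins lay nearer to its average than they did. On length-corrected CPM ssq-3 was among the genes nearest to the myosins (0.17), and R10E9.2 and F35B12.3 were again among those nearest to the troponins.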

How the data were processed

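RNA-seq values of 6 libraries (2 per dose, 0, 200 and 400 Gy) were used. Per the file headers, the authors deposited raw read counts and RPKM per gene and library. The deposited RPKM can be rebuilt from count, length and library total, and the tests used the counts. The submitters' processing notes name bcl2fastq, TopHat2 2.0.13 and WBcel235. Not given in the sources used here are the counter, annotation release, strand setting and treatment of multiply matching reads. Total counts ran from 9554479 to 12315765 per library, with TMM factors from 0.752 to 1.24, and replicates differed beyond counting noise (chi-square per degree of freedom 60.3, 95.2 and 113 at 0, 200 and 400 Gy). The common biological coefficient of variation was 35.1%.

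Genes were kept by filterByExpr and tested with edgeR 4.0.16 (R 4.3.3, quasi-likelihood, TMM) in 1 fit over all 6 libraries with 3 residual degrees of freedom, with Benjamini-Hochberg adjustment over 14417 genes and a threshold of 0.05. The SE is the absolute log2 fold change over the root of its F value. The length correction took off, as an offset, a loess trend (span 0.3) of each library's log2 deviation (prior count 2) on log2 length. Lengths are called coding because 91.7% of them divide by 3. Only the main edgeR fit was tested on simulated data, which held no length trend and no replicate effect. The length correction and the block were not tested in that way. Alternatives were other scalings, the DESeq2 1.42.0 Wald test, other filters, only the 4 libraries compared, ribosomal RNA genes left out, the replicate block, the length correction alone or with the block, and leaving out each library with and without it.

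Deviations of same-numbered libraries from their dose means correlated across genes at 0.479 (0 and 200 Gy), 0.375 (0 and 400 Gy) and 0.596 (200 and 400 Gy). From these data the numbers were read as pairs, since the labels do not say what a number marks. The pairing was thus inferred from the same counts that the block fit tests. With 2 libraries per dose, numbers without meaning could also give positive correlations, so these cannot establish the pairing. All calls with the block carry this limit. The pairing was not built into the main fit, which had dose alone, and the replicate block is given as an alternative. At 400 Gy against 0 Gy the main fit called 7 genes and 2 members, and the block 3586 and 5. The members, the lists and the tests were chosen with earlier results of these data known. Named genes were all members, up to 4 per list with the smallest p in any comparison, and the 5 nearest in pattern to each class; mup-2, tni-1, eat-2, eat-18, end-1, med-1 and ric-4, and the pairs of like length, were named after their values were seen. The table has 0 further columns of per-sample values.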

Additional observations from a re-analysis of the deposited data

Results flagged for a closer look

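The myosins were singled out because their effect at 400 Gy differed from that at 200 Gy, by the test of 400 Gy against 200 Gy, which is the test of that difference since both doses share the 0 Gy libraries. The difference on the log2 scale was 3.68 for myo-1, 2.36 for myo-2 and 4.24 for myo-5. Each was higher in both 400 Gy libraries than in both 200 Gy libraries, but the share of all genes lying so was not taken. The median of the length class that holds them was 2.3, but most genes of that class are shorter than the myosins. At the length of myo-2 the fitted trend of log2 deviations was -1.225 and -1.934 in the 200 Gy libraries. In the 400 Gy libraries it was 1.633 and 1.411. Length-corrected, none of the 3 passed in edgeR (0.61, -0.77 and 1.02; 0 at an unadjusted p under 0.05). Groups of 2 libraries are too small for a test of single outlying libraries.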

How the results depend on the processing

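With 2 libraries per dose, calls depended on the fit. All 6 members kept a positive log2 fold change at 400 Gy against 0 Gy under each of 23 alternatives (0.60 to 4.10). For 400 Gy against 0 Gy, all-gene calls were 7, and 273 with DESeq2 size factors, 1353 with the DESeq2 Wald test, 230 with no filter, 2191 with only the 4 libraries compared, and 265 length-corrected; members called were 2, 3 with the size factors or no filter, and 5 with the Wald test or the 4 libraries. With the replicate block, all-gene calls were 6444 (200 Gy against 0 Gy, 2269 without it), 3586 (400 Gy against 0 Gy) and 7640 (400 Gy against 200 Gy, 4495 without it), and members called were 4, 5 and 4; adding the length correction gave 4616, 2513 and 4654 genes and 4, 6 and 2 members. Length-corrected, all-gene calls were 664 for 200 Gy against 0 Gy and 717 for 400 Gy against 200 Gy, with 0 members for 400 Gy against 200 Gy. Only the 4 libraries compared gave 1 member for 200 Gy against 0 Gy; with the length correction as well, a setting chosen after seeing the data, there were 296, 2042 and 319 genes and 1, 6 and 0 members. The troponin minus myosin mean became -0.39, -0.06 and 0.32 length-corrected, -0.41, -0.05 and 0.37 with the block too, and -0.39, -0.06 and 0.32 with 4 libraries. Signs turned for myo-5 at 200 Gy against 0 Gy (0.59 length-corrected, 0.56 with the block, 0.59 with 4 libraries), and at 400 Gy against 200 Gy for myo-2 (-0.77, -0.74 and -0.76), tnc-2 (0.24, 0.39 and 0.24) and tni-4 (0.05, 0.04 and 0.06). Leaving out each library in turn, with or without the length correction, gave 0 to 4644, 0 to 2295 and 0 to 5781 genes and 0 to 4, 0 to 6 and 0 to 5 members in the order of comparisons used above, where a lone library is assumed to vary like the other doses. The troponin minus myosin mean then ran from -0.70 to 2.42, -1.92 to 0.10 and -4.14 to 0.64. Single genes ran from -0.19 to 1.98 (myo-1), -1.70 to 1.16 (myo-5) and -0.15 to 1.19 (tnt-4) for 200 Gy against 0 Gy, and from -1.03 to 2.61 (myo-2), -1.55 to 1.45 (tnc-2) and -1.17 to 0.40 (tni-4) for 400 Gy against 200 Gy. Other scalings, filters and the removal of ribosomal RNA genes turned no member's sign. Low reads limit myo-5, tnc-2 and tnt-4 most. Where a result changed, the cause was not tested.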
